A study of Mus musculus with 14 samples.

Results

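Among 14 mouse thymic lymphomas profiled on exon arrays, 7 arose in the CD4-SB model. These 7 were divided by how much RNA they held of 9 genes used here as markers of a tumour's host cells. Not all are confined to host cells, since Cd37 is lymphoid as well as myeloid. The log2 levels of C1qa, Csf1r, Fcgr3, Itgax, H2-Aa, Irf8, Cd37, Dcn and Sparc were averaged in each tumour. The 4 CD4-SB tumours of highest average (replicates 1, 3, 5 and 6) are called marker-high below, and the other 3 (replicates 2, 4 and 7) marker-low. The 7 tumours of the second model, Vav-SB, played no part in the choice. All 14 tumours carry mobilised Sleeping Beauty transposons, pieces of DNA that jump and mutate the genes they land in. In this study's design, as known in the field, the transposase is switched on by a Cre recombinase that acts from the Vav promoter, in blood cells from the stem cell on, or from the Cd4 promoter, in thymocytes at a later stage. The labels give the strain name and the diagnosis and no age, treatment or sex, and neither group has a normal thymus beside it. Each array measured the RNA of a whole frozen tumour, so that fewer cells of a type and less RNA per cell cannot be told apart.

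A thymic lymphoma grows among macrophages, dendritic cells, B cells, fibroblasts and vessels. Macrophages are known by the complement component C1qa, the growth factor receptor Csf1r and the Fc receptor Fcgr3, and dendritic cells and B cells by MHC class II molecules, which present peptides to CD4 T cells. Interferons, made during infection and by activated T cells, switch on a large programme in nearly every cell type: guanylate-binding proteins and immunity-related GTPases, MHC genes and the chemokines Cxcl9 and Cxcl10. Cycling cells carry the replication helicase, origin factors and mitotic kinases.

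The average of the 9 genes ran from 9.58 to 10.32 in the marker-high tumours (9.86 ± 0.34, SD, n = 4) and from 8.75 to 9.49 in the marker-low tumours (9.06 ± 0.38, SD, n = 3). The line fell in a narrow gap. Replicate 5, the last inside, stood at 9.58, and replicate 4, the first outside, at 9.49, a distance of 0.097 on the log2 scale. Since these values chose the groups, they are a description. The 9 genes did not move as 1: the class II chain H2-Aa, the lymphoid and myeloid tetraspanin Cd37 and Csf1r were the 3 without overlap, at mean differences of 1.60, 0.53 and 0.73. Itgax, the integrin CD11c of dendritic cells and some macrophages, stood at 9.63, 7.71, 8.53 and 8.85 in marker-high replicates 1, 3, 5 and 6 and at 6.46, 8.03 and 6.78 in marker-low replicates 2, 4 and 7, the order in which tumours are listed throughout. Dcn, a matrix proteoglycan of fibroblasts, stood at 11.44, 11.79, 10.92 and 9.98 against 9.16, 10.12 and 9.43. In both of these genes replicate 4 lay above the lowest marker-high tumour, as it did in 6 of the 9 genes. Sparc, a matrix protein, had a mean difference of -0.12, lower in the marker-high tumours.

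**Figure D1:**
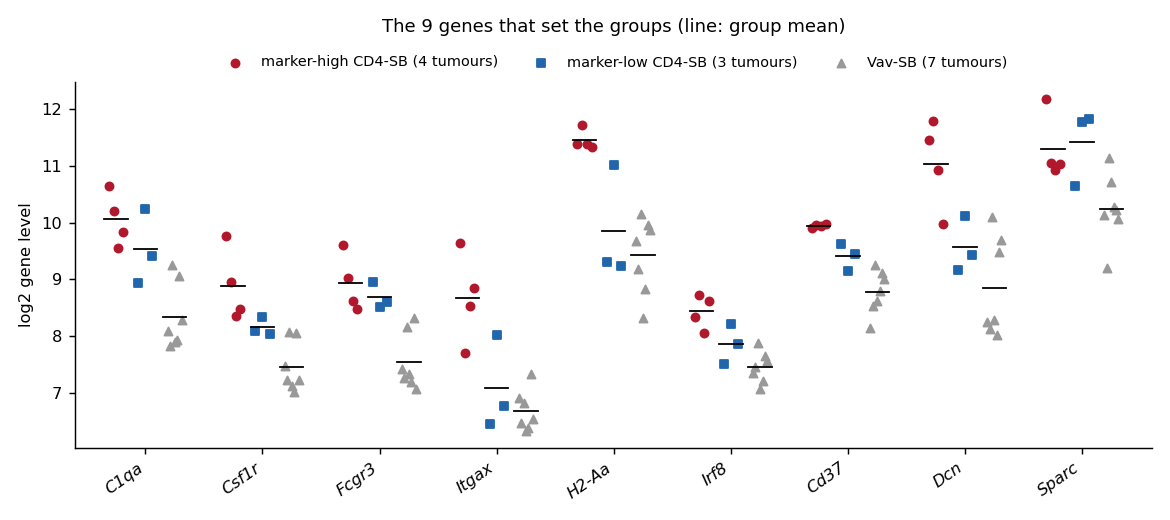
log2 level of each of the 9 genes that set the groups (x axis) in every tumour: 4 marker-high CD4-SB, 3 marker-low CD4-SB and 7 Vav-SB tumours, 1 point per tumour, with a line at each group mean. H2-Aa, Cd37 and Csf1r separate the CD4-SB groups, whereas C1qa, Fcgr3, Irf8, Itgax, Dcn and Sparc overlap.

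Across the array 15794 genes other than the 9 were compared. A gene is called here where every tumour of one group lay above every tumour of the other and the group means differed by at least 2-fold (1 on the log2 scale). By this rule 270 genes were higher in the marker-high tumours (1.71% of all genes) and 241 were lower (1.53%). Without a fold, 1052 genes did not overlap and were higher (6.66%) and 2008 did not overlap and were lower (12.7%). The median difference over all genes was -0.06, with 42.1% of genes above 0, so many small differences pointed downwards. Of the called genes 39 were at least 4-fold higher and 3 at least 4-fold lower. No p-value is attached to any gene in this contrast, because the groups were chosen from values of the same arrays. Genes that follow the 9 markers had to differ here. The counts depend on the line. With the 3 highest tumours against 4 they were 86 and 61. With groups by C1qa, Csf1r and Fcgr3 they were 22 and 19, and with groups by Dcn and Sparc 28 and 13. Without replicate 2 there were 445 higher, but fewer tumours make an absence of overlap easier to reach.

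Wider marker lists separated the groups for some host cell types and not for others, and the groups are therefore called by their rule. The mean levels of 4 cell-type lists lay higher in every marker-high tumour than in every marker-low tumour: B cell (7.36 to 8.01 against 6.50 to 6.74), dendritic cell (7.96 to 8.20 against 6.95 to 7.79), immunoglobulin and plasma cell (8.95 to 9.24 against 7.52 to 8.66) and granulocyte and mast cell (6.70 to 7.22 against 6.28 to 6.45). The erythroid and platelet list lay the other way without overlap (6.70 to 7.06 against 7.11 to 7.30). The mean levels of the macrophage and matrix lists overlapped between the groups. Of 23 further macrophage and monocyte genes, 0 were 2-fold apart without overlap and 3 were higher without overlap at a smaller size, the protease Ctss (0.66), the transcription factor Spi1 (0.63) and Ly86 (0.99), a partner of a Toll-like receptor relative. Over all genes 6.66% were higher without overlap. In mean difference 16 of the 23 lay above 0, where 42.1% of all genes did, and 7 below, with a median of 0.26. The largest was Csf3r, the granulocyte growth factor receptor, at 1.41 with overlap. At the other end Adgre1, an adhesion receptor that marks mouse macrophages, stood at 6.20, 7.96, 6.95 and 7.34 in the marker-high tumours and at 7.69, 8.52 and 7.53 in the marker-low tumours, and 0 of its 22 probe sets had the higher mean in marker-high tumours. Lyz2, the myeloid lysozyme, stood at 11.97, 10.36, 11.74 and 11.34 against 11.11, 11.46 and 10.94. The mean level of the macrophage list was 9.36 in replicate 1 but 8.78 to 8.90 in the other marker-high tumours, inside or close to the marker-low range of 8.61 to 8.84. Of 24 fibroblast and matrix genes, 1 was called, Thy1, which T cells carry too. It owed its difference to replicate 2, at 8.16, while the other CD4-SB tumours lay between 11.14 and 11.85. Col1a1, the main fibrillar collagen, stood at 9.04, 7.44, 8.02 and 7.95 against 8.15, 8.36 and 8.76. Grouping the tumours by C1qa, Csf1r and Fcgr3 alone put replicate 4 with the marker-high tumours in place of replicate 5, Dcn and Sparc alone put it there in place of replicate 6, and Itgax, H2-Aa, Irf8 and Cd37 gave the same groups as all 9.

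T-cell genes mostly overlapped, as most genes did. Over all genes 1.71% were called higher and 1.53% lower, so few called members are no trait of these lists. Of 16 T-cell receptor and CD3 genes, 0 were 2-fold apart without overlap, and the median difference was 0.03. At a smaller size 1 of the 16 was higher without overlap, where 6.66% of all genes were. Cd3e, a signalling chain of the T-cell receptor, stood at 11.19, 11.77, 11.58 and 11.57 against 11.07, 11.44 and 11.46. Ptprc, the pan-leukocyte CD45, differed by 0.23 on average with overlap. Notch1, the receptor mutated in many T-cell leukaemias, differed by 0.11 with overlap. Of the double-positive thymocyte list, 1 of 15 was called, Bcl6 (1.27), a repressor used by germinal-centre B cells too, and of 15 T-lineage transcription factors 0 were called. Some members of these T-cell lists had larger mean differences, in both directions and with overlap: Trat1 1.48, Satb1 0.99 and Lef1 -1.44. Eif2s3y, a gene of the Y chromosome, stood at 9.96 in replicate 3 and between 3.96 and 4.16 in the other 6 CD4-SB tumours.

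**Figure D2:**
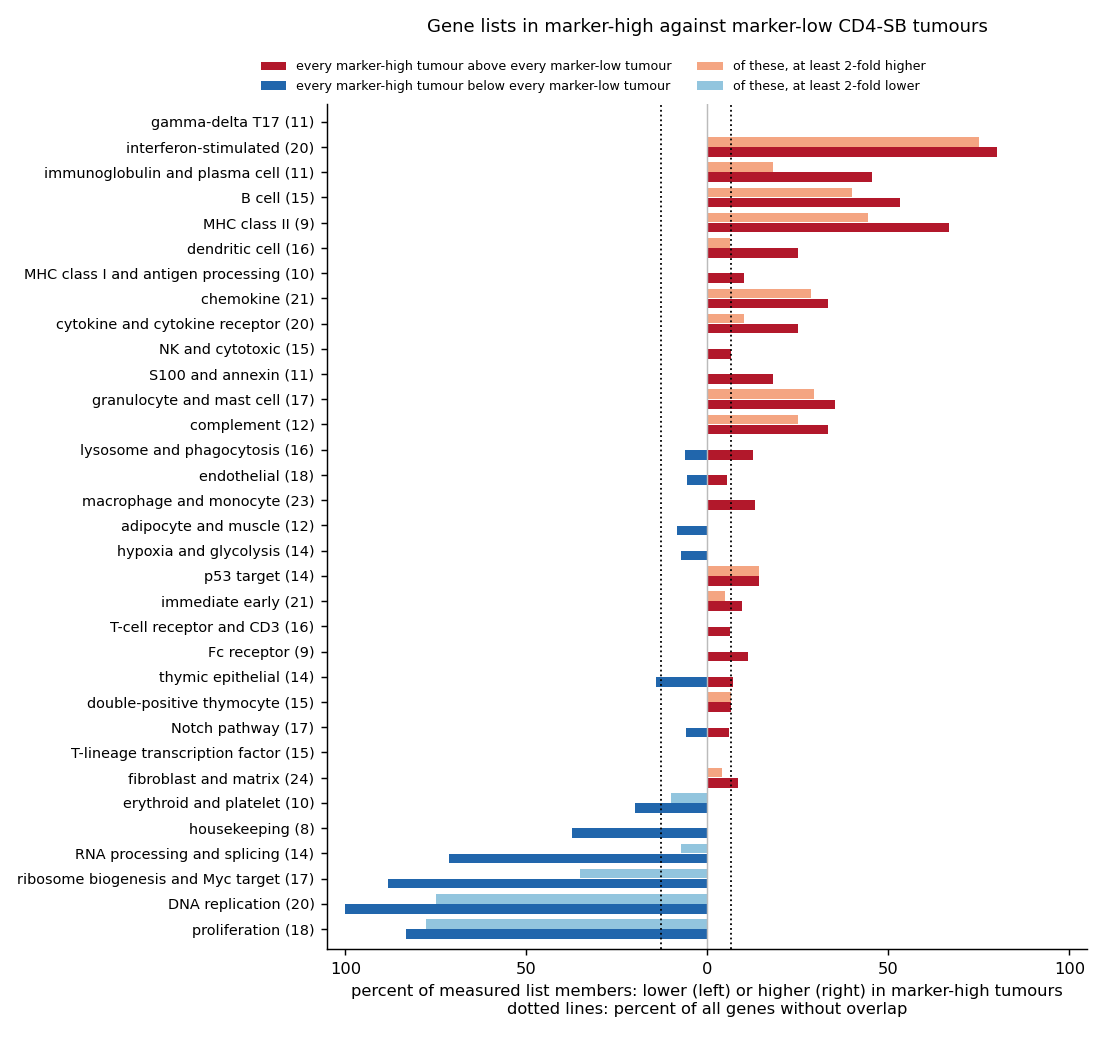
Percent of the measured genes of each list (number in brackets) that did not overlap between the 4 marker-high and 3 marker-low CD4-SB tumours (dark bars) and that were also at least 2-fold apart (pale bars), higher to the right and lower to the left. Dotted lines stand at the shares of all genes without overlap, 6.66% and 12.7%. The interferon-stimulated, MHC class II and B-cell lists lead on the right and the DNA replication, ribosome biogenesis and proliferation lists on the left, ordered by their median difference.

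Interferon-stimulated genes were the list with the most members higher. Of 20 measured, 15 were called higher, against 1.71% of all genes, 0 were called lower, and the median difference was 1.30. With the 3 highest tumours against 4 the count was 7, and under the groupings by C1qa, Csf1r and Fcgr3 or by Dcn and Sparc 0. Gbp2, a guanylate-binding protein that attacks the vacuoles of intracellular parasites, stood at 8.66, 9.72, 8.09 and 9.25 in the marker-high tumours and at 5.81, 7.14 and 6.39 in the marker-low tumours (8.93 ± 0.71 against 6.45 ± 0.67, SD, 5.6-fold). Its relative Gbp6 stood at 8.85, 9.90, 8.64 and 8.89 against 7.15, 7.34 and 6.96 (3.78-fold). Replicate 3 was the highest tumour in both genes, and it was the highest of the 4 marker-high tumours in 16 of the 20 genes of the list. Igtp, an immunity-related GTPase, stood at 8.93, 10.70, 9.89 and 9.86 against 7.60, 8.40 and 8.10 (3.51-fold). Iigp1, another of that family, stood at 7.27, 10.04, 7.79 and 8.66 against 5.22, 6.93 and 6.03 (5.2-fold), with replicate 1 only a little above replicate 4. Antiviral members of the list were higher as well: Ifit1, which binds foreign RNA, by 1.74, Mx1 by 1.39, the transcription factor Irf7 by 1.27 and the RNA sensor Ifih1 by 1.16 on the log2 scale, each called. Oas3 (0.09) and Ifit2 (0.19) overlapped. The mean level of the list was 7.94 to 8.87 in the marker-high tumours and 6.75 to 7.03 in the marker-low tumours.

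The promoters of these genes are shown because the list is defined by a shared response, read through an element whose core is GAAANNGAA. Promoter windows (250 bases before to 50 after the annotated start, RefSeq, GRCm38.p6, written along the transcript) were searched on both strands. The core was in 2812 of 32851 windows (8.56%). Of the 15 called interferon-stimulated genes 11 were matched, with 12 windows, and 9 of these windows held the core (75%). Over all measured genes of that list, called or not, it was in 12 of 17 windows (70.6%), so the share is not particular to called genes. The windows of measured class II genes, 6 of 5 genes, held it in 0, and those of measured macrophage genes, 19 of 17 genes, in 5 (26.3%). The Y box of class II promoters, CTGATTGG, was in 4.10% of all windows and in 2 of the 6 class II windows, and the PU box GAGGAAGT was in 3.20% of all windows and in 1 of the 19 macrophage windows, that of Ctss. The 3 motifs were counted separately, and those that share letters can overlap. Capitals mark the match nearest the start site, which reads as the reverse complement TTCNNTTTC in Gbp2, Ifit1 and Gbp3, and the Y box in H2-Eb1. A match is a run of letters in this window and does not show binding. These are the 4 called interferon-stimulated genes of largest difference with a match, and the called class II gene with a Y box, all on the plus strand.
Gbp2 (chr3:142620580-142620638, match starting 58 bases before the start site): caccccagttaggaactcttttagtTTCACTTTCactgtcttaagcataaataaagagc
Igtp (chr11:58199497-58199555, 34 bases before): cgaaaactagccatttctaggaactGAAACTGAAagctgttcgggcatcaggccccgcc
Ifit1 (chr19:34640780-34640838, 84 bases before): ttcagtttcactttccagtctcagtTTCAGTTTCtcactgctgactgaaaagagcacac
Gbp3 (chr3:142559981-142560039, 38 bases before): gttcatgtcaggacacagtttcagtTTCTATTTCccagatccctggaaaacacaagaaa
H2-Eb1 (chr17:34305780-34305837, 62 bases before): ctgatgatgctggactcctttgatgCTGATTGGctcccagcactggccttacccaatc

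The class II genes followed, though the class II chain H2-Aa itself helped to set the groups. The median difference was 0.88. Of 9 measured beside H2-Aa, 6 did not overlap, all higher, against 6.66% of all genes, and 4 were called higher, against 1.71%. The count was again 4 with the 3 highest tumours against 4, and 0 with 1 tumour per title number and under the groupings by C1qa, Csf1r and Fcgr3 or by Dcn and Sparc. Cd74, the invariant chain that guides class II molecules through the cell, stood at 10.99, 11.14, 10.71 and 11.09 against 7.90, 10.35 and 7.95 (4.75-fold). H2-Eb1, whose Y box is shown above, stood at 12.17, 12.09, 11.86 and 12.07 against 9.43, 11.41 and 9.32 (3.99-fold). Marker-high tumours were close together in both genes, and replicate 4 lay near them while replicates 2 and 7 were far below. H2-Ab1 (3.58-fold) and the peptide-loading chain H2-DMb1 (2.95-fold, 1 probe set) likewise had replicate 4 as the nearest marker-low tumour. Ciita, the activator of class II transcription, was higher without overlap by 0.88, under the 2-fold line. MHC class I and antigen-processing genes did less: 0 of 10 were called and 1, Tapbp, did not overlap, with a median difference of 0.67. Of 16 dendritic-cell genes 1 was called, Cd83, a marker of mature dendritic and activated B cells, at 8.18, 8.21, 8.05 and 8.03 against 6.48, 6.98 and 6.05 (3.06-fold). In that list 4 of 16 were higher without overlap, against 6.66% of all genes. In mean difference 15 lay above 0 and 1 below, with a median of 0.79. Probe sets of class II chains, guanylate-binding proteins and other families of close relatives can bind more than 1 member.

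In these groups B-cell genes were separated more often than macrophage genes. Itgax, H2-Aa, Irf8 and Cd37 alone give the same groups, and B cells carry class II molecules too. This order is therefore not independent of the rule. The median difference was 0.98. Of 15 measured, 8 did not overlap, all higher, against 6.66% of all genes, and 6 were called higher, against 1.71%. The count was 0 with the 3 highest tumours against 4 and under the groupings by C1qa, Csf1r and Fcgr3 or by Dcn and Sparc, and 3 under either filter on dim genes or probe sets. Ms4a1, the B-cell surface antigen CD20, stood at 6.53, 7.59, 8.07 and 7.26 against 5.30, 5.22 and 4.92 (4.66-fold). Cd79b, a signalling chain of the B-cell receptor, stood at 9.27, 9.58, 10.33 and 9.30 against 7.23, 8.36 and 8.04 (3.35-fold), and its partner Cd79a at 5.74, 7.29, 6.75 and 6.06 against 4.70, 5.16 and 4.77 (3-fold). Levels of Cd79a and Ms4a1 in the marker-low tumours lay in the lower part of the array's range. Replicate 5 was the highest marker-high tumour in 9 of the 15 genes, unlike the interferon list, where replicate 3 led. Pou2af1, a coactivator of immunoglobulin genes, was 2.75-fold higher. Pax5, the factor that fixes B-cell identity, was higher without overlap by 0.50, and Blk, a kinase of B cells and of some T cells, overlapped. The mean level of the list was 7.36 to 8.01 in the marker-high and 6.50 to 6.74 in the marker-low tumours. Of 11 immunoglobulin and plasma-cell genes 2 were called higher, Prdm1 (1.28) and Irf4 (1.09), both transcription factors of plasma cells that activated T cells use too. Igkc, the kappa light chain, stood at 13.25, 13.63, 13.59 and 13.48 against 11.62, 13.34 and 11.79 with overlap through replicate 4. The deposited values carry no detection call, so no marker can be called absent, and the part of B cells or other host cells in the other differences was not tested.

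Chemokine genes followed the marker-high tumours in part, with a median difference of 0.65. Of 21 measured 0 were called lower and 6 higher, against 1.71% of all genes called higher. The count was 3 with the 3 highest tumours against 4, and 1 and 0 under the groupings by C1qa, Csf1r and Fcgr3 and by Dcn and Sparc. Cxcl9, which draws activated T cells and is induced by interferon gamma, stood at 8.68, 9.29, 8.15 and 10.45 against 6.82, 7.35 and 6.27 (5.04-fold), and Cxcl10 at 8.93, 8.88, 8.12 and 8.77 against 6.75, 7.50 and 7.02 (3-fold). Ccl8, a monocyte-attracting chemokine, was 3.54-fold higher. Cxcl13, which organises B-cell follicles, was higher by 1.41. Ccl5 had the largest mean difference of the measured cytotoxic genes, 3.28, but was not called, since replicate 5 (8.04) lay below replicate 4 (8.42). Complement genes gave 3 called of 12, all higher, against the same 1.71% of all genes. C3, the central component, stood at 12.21, 11.85, 12.03 and 11.81 against 10.23, 10.71 and 10.48 (2.83-fold), and the factor B gene Cfb was 2.89-fold and C4b 2.11-fold higher. The chains of C1q did not differ in this way: C1qb (-0.07) and C1qc (-0.01) overlapped, as did the rule gene C1qa.

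The lists with the most members lower in marker-high tumours were those of cycling cells. Of 20 DNA replication genes 15 were called lower, against 1.53% of all genes, and 20 did not overlap, all lower, against 12.7%. The median difference was -1.16. Rfc4, a subunit of the clamp loader, stood at 7.15, 6.80, 7.43 and 7.62 in marker-high and at 9.15, 9.17 and 8.90 in marker-low tumours (3.54-fold lower). Rrm1, the large subunit of ribonucleotide reductase, stood at 9.18, 8.41, 9.33 and 9.52 against 10.55, 10.59 and 10.52 (2.72-fold lower). The marker-low tumours were nearly level with each other in Rrm1, and replicate 3 was the lowest of the marker-high tumours. Helicase subunits lay just past the line, Mcm7 at -1.24 and Mcm2 at -1.02. Of 18 proliferation genes 14 were called lower, with a median difference of -1.19. Bub1, a kinase of the spindle checkpoint, stood at 8.17, 5.74, 8.51 and 8.17 against 9.72, 9.64 and 9.21 (3.66-fold lower), and Top2a, the topoisomerase of dividing cells, at 9.71, 7.97, 10.27 and 10.22 against 11.06, 11.17 and 11.03 (2.92-fold lower). Chek1, the S-phase checkpoint kinase, was 3.78-fold lower. Mki67, which encodes the proliferation antigen Ki-67, stood at 11.51, 9.90, 11.50 and 11.47 against 12.02, 11.92 and 11.78, lower without overlap but under the 2-fold line.

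With the 3 highest tumours against 4, which moves replicate 5 across the line, 0 replication and 4 proliferation genes were called, and 0 of either under the groupings by C1qa, Csf1r and Fcgr3 or by Dcn and Sparc. Replicate 3 set much of the size of this difference. It was the lowest of the 4 marker-high tumours in 18 of 18 proliferation genes and in 19 of 20 replication genes. Without it the median difference was -0.82 for proliferation and -0.92 for replication, and the members past the 2-fold line fell to 5 of 18 and 5 of 20. Replicates 1, 5 and 6 lay below every marker-low tumour in all 20 replication genes, which follows from the absence of overlap with all 4 tumours. The same tumour was the highest for most interferon-stimulated genes.

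Genes of ribosome biogenesis and Myc targets changed little without replicate 3. Of 17 measured 6 were called lower, against 1.53% of all genes, and 15 did not overlap, all lower, against 12.7%. The median difference was -0.92, and -0.92 again without replicate 3. The count was 3 with the 3 highest tumours against 4 and 0 under the groupings by C1qa, Csf1r and Fcgr3 or by Dcn and Sparc. Polr1b, the second subunit of RNA polymerase I, stood at 6.87, 7.26, 7.31 and 7.09 against 8.36, 8.55 and 8.65 (2.62-fold lower). Gnl3, the nucleolar GTPase nucleostemin, stood at 9.87, 10.15, 10.34 and 9.89 against 11.42, 11.13 and 11.25 (2.3-fold lower), and Nop56, a protein of small nucleolar particles, was 2.11-fold lower. The spread inside each group was small: the list's mean level was 8.78 to 8.88 in the marker-high and 9.58 to 9.65 in the marker-low tumours. Myc itself stood at 8.31, 10.49, 9.59 and 9.66 against 10.52, 9.96 and 10.98 and overlapped, replicate 3 being level with the marker-low tumours. Tfrc, the transferrin receptor through which dividing cells take up iron, stood at 8.64, 8.34, 8.38 and 8.51 against 10.02, 9.79 and 9.85 (2.67-fold lower). Of 14 RNA processing genes 10 did not overlap, all lower, against 12.7% of all genes, but 1 was called, Snrpd1 (-1.08). Housekeeping genes moved the same way in part, with 3 of 8 lower without overlap, against the same 12.7% of all genes. These were Hprt (-0.82), Gusb (-0.66) and Polr2a (-0.56), while Actb (0.16) overlapped. The part that total RNA content plays in these differences was not tested.

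**Figure D3:**
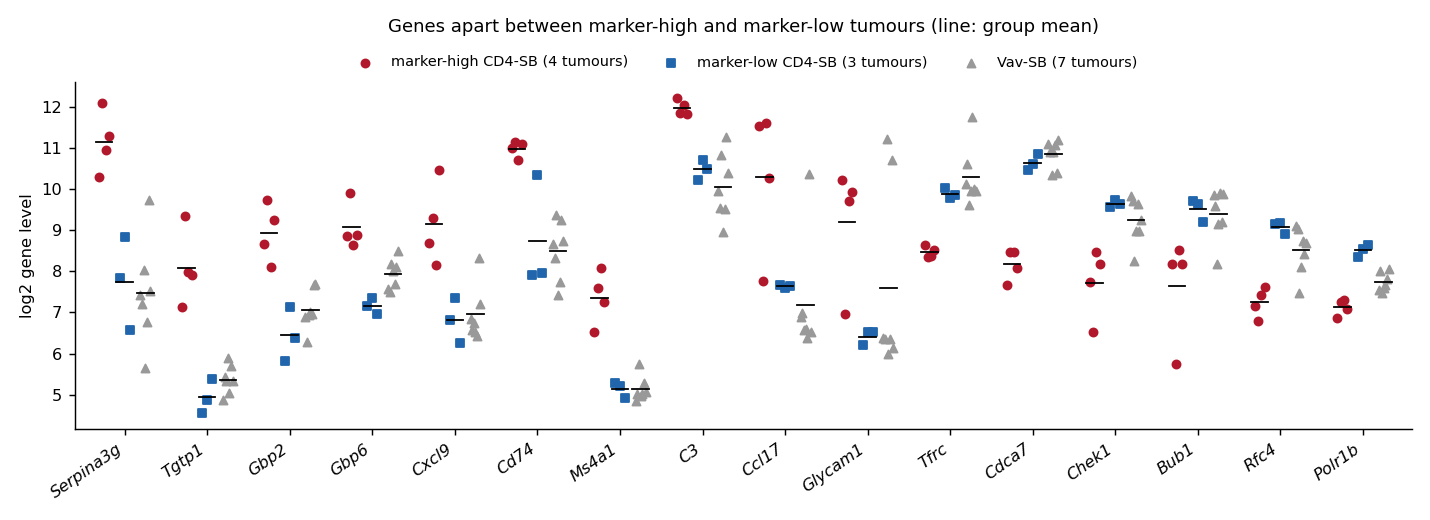
log2 level of 16 genes named in the text (x axis) in every tumour, 1 point per tumour with a line at each group mean: 4 marker-high CD4-SB, 3 marker-low CD4-SB and 7 Vav-SB tumours. Marker-high points lie above all marker-low points from Serpina3g to Glycam1 and below them from Tfrc to Polr1b. Replicate 3 is the low marker-high point of Ccl17 and Glycam1, at 7.77 and 6.96.

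The genes of largest difference showed that the marker-high tumours were not uniform. Serpina3g, a protease inhibitor of activated lymphocytes and macrophages, led at 10.29, 12.09, 10.94 and 11.29 against 7.85, 8.84 and 6.57 (10.5-fold). Tgtp1, an interferon-inducible GTPase measured by 1 probe set, stood at 7.14, 9.34, 7.98 and 7.91 against 4.56, 4.87 and 5.38 (8.91-fold). In both genes replicate 3 was highest. Others of the 15 largest went the other way. Ccl17, a chemokine of dendritic cells that attracts Ccr4-bearing T cells, stood at 11.53, 7.77, 11.61 and 10.26 against 7.67, 7.59 and 7.65, so that replicate 3 was barely above the marker-low tumours. Glycam1, a mucin of high endothelial venules, stood at 10.22, 6.96, 9.72 and 9.94 against 6.20, 6.53 and 6.52, and Ffar2, a receptor for short-chain fatty acids, at 10.09, 7.32, 9.58 and 9.87 against 6.75, 6.78 and 6.53. Among these 15 genes replicate 3 was the highest of the 4 in 6 and the lowest in 6. Kynu, an enzyme of tryptophan breakdown, had all 4 tumours far apart from the others, at 8.97, 7.84, 8.38 and 7.93 against 5.69, 5.93 and 5.88 (5.45-fold, with 17 of 17 probe sets higher). Slamf1, a receptor of activated lymphocytes, was 5.35-fold higher.

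On the lower side Cdca7, a gene of cycling cells that Myc and Notch can induce, stood at 7.68, 8.46, 8.48 and 8.09 against 10.47, 10.61 and 10.85 (5.52-fold lower, with 8 of 8 probe sets lower). Rps6ka6, a kinase of the RSK family, stood at 6.44, 4.56, 5.68 and 6.12 against 8.05, 9.12 and 7.72 (6.06-fold lower). Mcoln3, an endolysosomal ion channel, owed its place to a single tumour: it stood at 5.45, 5.13, 5.46 and 5.39 against 5.56, 10.70 and 5.70, with replicate 4 far above the rest. Bcat1, which breaks down branched amino acids, was 3.38-fold lower. Genes of interleukin-17 producing gamma-delta T cells crossed the groups. Il23r stood at 10.60, 6.57, 11.50 and 11.06 against 10.60, 5.69 and 5.40, high in replicates 1, 2, 5 and 6, so none of the 11 genes of that list was called despite a median difference of 2.01.

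Replicates 1 (marker-high) and 2 (marker-low) share the first number of their titles, and replicates 5 and 6 (marker-high) share another with replicate 7 (marker-low). The labels do not say what the number means or that tumours came from separate animals. Every called gene differs in the same direction within both of these numbers, because called genes do not overlap. With the number as a block, limma called 7 genes higher and 0 lower at an adjusted p under 0.05, on 2 residual degrees of freedom, where it called 140 and 338 without the block. At an unadjusted p under 0.05 the blocked fit had 1307 higher and 1325 lower. These fits take no account of how the groups were chosen, so their counts are a description and not a test.

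The Vav-SB tumours offer a test on tumours that did not set the groups. Their average of the 9 genes was lower, 7.92 to 8.98 (8.31 ± 0.43, SD, n = 7), and the highest Vav-SB tumour lay below marker-low replicate 4 and just above marker-low replicate 7 (8.96). Each gene was fitted against the average across the 7 Vav-SB tumours, and the slope is the log2 difference per log2 unit of the average. By limma with Benjamini-Hochberg adjustment over 15794 genes, 13 genes passed 0.05, all rising with the average (0.0823% of all genes), and 0 falling. The p-values rest on the spread among these 7 tumours, whose origin from separate animals the labels do not state. At an unadjusted p under 0.05, 1071 genes had a slope above 0 (6.78%) and 1086 below (6.88%). Cp, the plasma copper oxidase ceruloplasmin, stood at 5.79, 5.78, 7.49, 5.76, 5.78, 7.47 and 6.53 in Vav-SB replicates 1 to 7, with a slope of 1.84 ± 0.17 SE (limma, adjusted p = 0.0441). Replicates 3 and 6, the tumours of highest average, were the high ones. Cp was also called in CD4-SB, at 9.71, 8.71, 8.86 and 8.24 in the marker-high and 7.12, 6.90 and 6.49 in the marker-low tumours, the 1 gene of the 13 that was. Mrc1, the macrophage mannose receptor, had a slope of 1.78 ± 0.21 SE (limma, adjusted p = 0.0441) in Vav-SB but differed by 0.23 with overlap in CD4-SB. Itgam, the integrin CD11b of myeloid cells, had a slope of 1.11 ± 0.11 SE (limma, adjusted p = 0.0441) and differed by 0.41 with overlap in CD4-SB. The other 10 were Adh1, Ccl6, Clu, Fgl1, Gm2a, Grn, Hp, Pdk4, Pnpla2 and Xdh. Without any 1 of replicates 2, 3, 4, 5 or 6 of Vav-SB 0 genes passed, without replicate 1 there were 2, without replicate 7 there were 16 and 1 falling, and with replicates 3 and 6 both left out 1, which is none of the 13.

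In direction the called genes mostly ran the same way in Vav-SB. Of the 270 genes higher in marker-high CD4-SB tumours 229 (84.8%) had a slope above 0 in Vav-SB, where 43.1% of all genes did, and at an unadjusted p under 0.05 the slope was above 0 in 98 and below in 3. Of the 241 lower genes 225 (93.4%) had a slope below 0, where 56.9% of all genes did, and at that level it was below 0 in 57 and above in 1. These genes are correlated and share 7 tumours, so the shares are a description. Iigp1 had a slope of 1.20 ± 0.20 SE and C3 of 1.73 ± 0.29 SE, at adjusted p = 0.0817 and 0.0805 by limma, short of the threshold. Gbp8, a guanylate-binding protein 5.38-fold higher in marker-high CD4-SB tumours, had a slope of -0.70 ± 0.30 SE (limma, adjusted p = 0.363). That slope was opposite in sign and also short of the threshold. Whether slopes differ between the models was not tested.

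**Figure D4:**
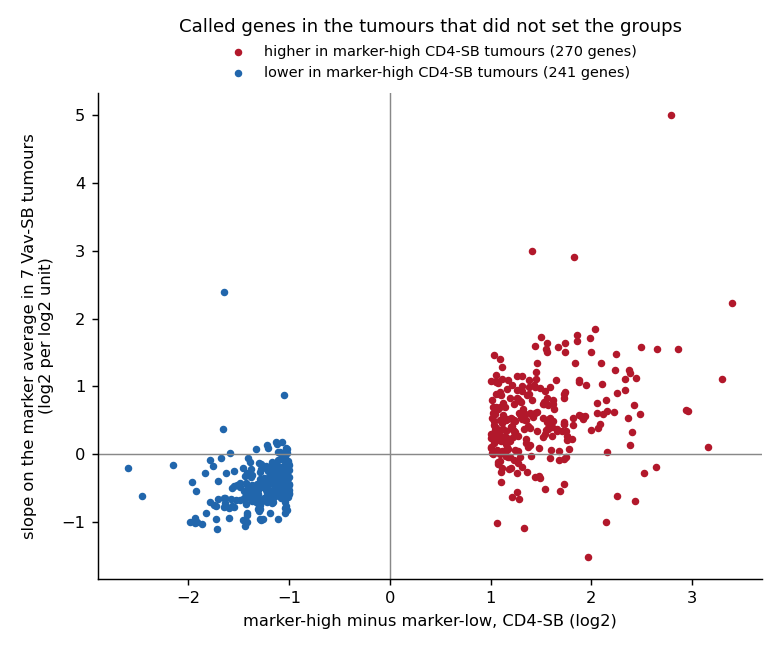
Each point is 1 of the 270 genes higher or 241 lower in marker-high CD4-SB tumours: the CD4-SB difference in log2 (x axis) and the slope on the average of the 9 genes across 7 Vav-SB tumours (y axis). Of the higher genes 84.8% lie above 0 on the y axis and of the lower genes 93.4% below.

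After adjustment over all genes few members of any list passed in Vav-SB: 1 of 23 macrophage and monocyte genes, 1 of 16 lysosome genes, 1 of 12 complement genes and 1 of 21 chemokine genes, all with slopes above 0, and 0 of the MHC class II, B-cell, interferon-stimulated, proliferation, replication and ribosome biogenesis lists. At an unadjusted p under 0.05 by limma, 14 of 23 macrophage genes had a slope above 0 and 0 below. The counts were 11 and 0 of 16 for lysosome, 9 and 0 of 12 for complement and 5 and 0 of 9 for MHC class II. For B-cell genes they were 5 and 0 of 15, for chemokine genes 8 and 1 of 21 and for interferon-stimulated genes 4 and 0 of 20. At that level 5 of 18 proliferation, 4 of 20 replication and 0 of 17 ribosome biogenesis genes had a slope below 0. In sign alone 18 of the 20 interferon-stimulated and 14 of the 15 B-cell slopes lay above 0, and 17, 20 and 14 of the 3 lower lists below. Over all genes the shares in sign alone were 43.1% above and 56.9% below. At an unadjusted p under 0.05 they were 6.78% above and 6.88% below. The mean level of the B-cell list in Vav-SB was 6.25 to 6.69, inside or below the marker-low range of CD4-SB, and that of ribosome biogenesis was 8.77 to 9.29, mostly between the CD4-SB groups.

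**Figure D5:**
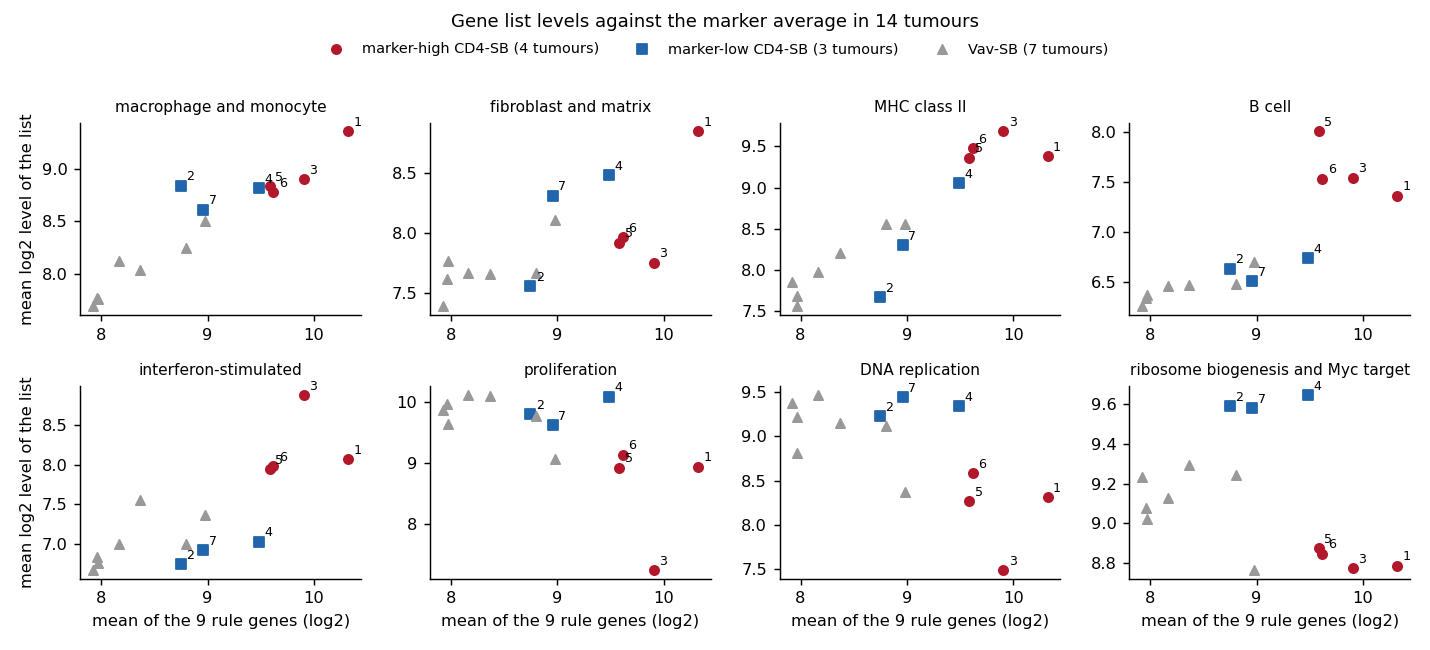
Mean log2 level of 8 gene lists (y axes) against the average of the 9 rule genes (x axes) in 14 tumours, with CD4-SB replicates numbered. The macrophage and matrix lists do not separate marker-high from marker-low tumours, the MHC class II, B-cell, interferon-stimulated and ribosome biogenesis lists do, and replicate 3 stands lowest for proliferation and DNA replication.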

How the data were processed

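The deposited table holds log2 values of 194293 probe sets, 1 column per tumour. The authors made these log2 values with RMA and Partek, named without versions in the submitters' processing notes. RMA is a method that gives all arrays the same overall distribution, so that differences in total RNA are not kept. The log base is read from the range, 2.03 to 14.03. Per the labels' protocols, cDNA was amplified from a small input of RNA, which adds spread between arrays. Precision is limited by the number of tumours, 7 of each strain. Probe sets annotated with a single symbol (179496, while 1328 had several and 13469 none) were averaged to 15803 genes, with symbols updated through a GRCm38.p6 table (13727 current, 2017 replaced, 59 kept as given). Replicate numbers follow accession order inside each strain.

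The marker-high and marker-low groups, the genes and the lists were chosen with earlier results of these data known. Their contrast is described by means, SDs, overlap and a 2-fold limit, with no p-value for any gene. Counts from limma on this contrast are given as a description. Slopes in Vav-SB were fitted with limma 3.58.1 in R 4.3.3 (lmFit, eBayes, Benjamini-Hochberg over 15794 genes, threshold 0.05), and tested on simulated data. Named genes were the 15 largest folds each way among called genes with a higher group mean above the median gene, up to 4 called members per list (otherwise the 2 of largest difference), 17 measured genes of prior interest and the 9 that set the groups. Further list members and genes past the Vav-SB threshold are named with their values and were picked after these were seen. There were 34 lists. Motifs were counted in the RefSeq promoter windows of 3 of them and of 27025 genes in all. Alternatives were the probe set summary, filters on dim genes and probe sets, quantile normalization, the fold, the line between the groups, 1 tumour per title number, single tumours left out, limma on the contrast with and without the first title number as a block and, for the slopes, array weights and a trended prior.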

Additional observations from a re-analysis of the deposited data

Results flagged for a closer look

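Among 79 genes looked at in the 4 marker-high tumours, 11 had 1 tumour apart from the other 3 by Dixon's criterion at the 95% level, and 10 of the 11 were in replicate 3. Chance alone sets about 5% of groups apart by this criterion, and the genes are correlated. Replicate 3 was the highest tumour for Gvin1, an interferon-inducible GTPase, at 11.39, and for H2-Aa at 11.71. It was the lowest for the cell-cycle and repair genes Cenpk (6.55), Bub1 (5.74), Exo1 (5.90), Bub1b (7.37) and Cdc6 (5.53), for the ribosome biogenesis gene Wdr12 (7.31), for the venule mucin Glycam1 (6.96) and for Pcp4, a calmodulin-binding peptide (6.76). Replicate 1 was the highest for Sparc, at 12.17. Replicate 3 was also the single CD4-SB tumour with a high level of the Y-linked gene Eif2s3y.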

How the results depend on the processing

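Replicate numbers follow accession order and pair nothing. The fit with the first title number as a replicate block, added after seeing the data, called 7 genes higher and 0 lower by limma at an adjusted p under 0.05 (1307 and 1325 at an unadjusted p under 0.05). That fit too takes no account of how the groups were chosen. The counts of called genes, 270 higher and 241 lower, depended on where the line was drawn. With 3 tumours of highest average against 4 they were 86 and 61, and interferon-stimulated, B-cell and chemokine members called higher were 7, 0 and 3, proliferation, replication and ribosome biogenesis members lower 4, 0 and 3. Grouping by C1qa, Csf1r and Fcgr3 gave 22 and 19, and grouping by Dcn and Sparc 28 and 13. Under these groupings the 7 list counts were 0, except 1 chemokine under the former. Grouping by Itgax, H2-Aa, Irf8 and Cd37 changed nothing, since the groups were the same. Leaving out the tumours nearest the line, replicates 4 and 5, gave 438 higher. A 1.5-fold limit gave 585 and 818 (ribosome biogenesis 12), a 3-fold limit 92 and 32 (interferon-stimulated 6, B-cell 2, proliferation 2, replication 2, ribosome biogenesis 0), and no fold limit, added after seeing the data, 1052 and 2008 (ribosome biogenesis 15). With 1 tumour per title number, which leaves replicate 4 alone on the low side, 562 and 628 were called and MHC class II gave 0. Genes above the median level gave 150 higher and 222 lower, with 9 interferon-stimulated and 3 B-cell members. Bright probe sets gave 3 B-cell members. limma on the same groups without the block called 140 higher and 338 lower at an adjusted p under 0.05, without regard to how the groups were chosen. Leaving out 1 CD4-SB tumour gave 280 to 445 higher and 198 to 353 lower. The 445 came without replicate 2. Fewer tumours make an absence of overlap easier to reach, here and in the settings above that leave tumours out. List counts ranged over 13 to 15 interferon-stimulated, 3 to 5 MHC class II, 5 to 7 B-cell and 6 to 8 chemokine members higher, and 5 to 16 proliferation, 5 to 18 replication and 5 to 7 ribosome biogenesis members lower. The lowest proliferation and replication counts came without replicate 3. Mcoln3 turned to higher under the groupings by C1qa, Csf1r and Fcgr3 (1.10) and by Dcn and Sparc (1.14), and Ccl8 to -0.094 under the latter.

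In Vav-SB 13 rising genes passed. The count was 7 with the median over probe sets (7 of them among the 13), 30 and 7 falling with quantile normalization (all 13 among the 30), 0 with array weights, 70 and 18 falling at 0.10, and 0 to 16 (0 to 1 falling) without 1 tumour. Without both tumours of highest average (added after seeing the data) it was 1, and 0 of the 13 passed, their lowest adjusted p being 0.447. Genes above the median level gave 2 falling. The causes of these changes were not tested. The values hold no detection calls, so low levels near background understate folds.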

Other observations

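Single members of further lists were called between the 4 marker-high and 3 marker-low CD4-SB tumours, where 1.71% of all genes were called higher and 1.53% lower. Of 14 p53 target genes 2 were called higher, but the list's median difference was 0.09 and 4 members lay below 0. Both called genes are known to slow the cell cycle: Btg2 stood at 9.55, 10.61, 9.03 and 9.60 in replicates 1, 3, 5 and 6 against 8.28, 8.99 and 8.004 in replicates 2, 4 and 7, and Trp53inp1 at 8.83, 9.62, 8.85 and 9.29 against 7.97, 7.34 and 8.08. The classical target Cdkn1a differed by 0.29 with overlap. Of 17 granulocyte and mast-cell genes 5 were called higher, with a median of 0.38. S100a9, a calcium-binding protein of neutrophils, stood at 11.07, 8.91, 10.16 and 8.13 against 6.74, 7.40 and 8.09, with replicate 6 barely above replicate 7, and its partner S100a8 showed the same order. Retnlg, a neutrophil resistin, was highest in replicate 3, at 9.46, while the stem-cell factor receptor Kit differed by 1.12 and Prg2, the eosinophil major basic protein, by 1.20. Granule genes of neutrophils, Ltf (0.35) and Camp (0.38), overlapped.

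Of 20 cytokine and cytokine receptor genes 2 were called higher, with a median of 0.50, Csf2rb (9.78, 8.21, 8.66 and 8.08 against 7.38, 7.43 and 7.30), the shared receptor chain for GM-CSF and interleukin-3, and Il10ra (7.81, 8.74, 7.09 and 7.87 against 6.57, 7.07 and 6.68), the interleukin-10 receptor chain. Of 15 natural killer and cytotoxic genes 0 were called. Gzmk, a granzyme, went against the markers in part, at 5.64, 8.62, 5.76 and 6.58 against 6.13, 9.82 and 9.61, high in replicates 3, 4 and 7. Endothelial genes gave 0 called of 18, thymic epithelial genes 0 of 14 and adipocyte and muscle genes 0 of 12. Of 10 erythroid and platelet genes 1 was called lower, Tfrc, which all dividing cells use. In mean difference 8 of the 10 lay below 0 and 2 above, with a median of -0.13.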
